A study of Mus musculus with 73 samples.

Results

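Adenocarcinomas from KB1P mice were compared with adenocarcinomas from KB2P mice, which are mouse mammary tumour models that lack the tumour suppressor p53 together with either BRCA1 (KB1P) or BRCA2 (KB2P). The tumours were chosen by their labelled genotype and histology, which gave 44 of the 73 libraries of the series. Of these, 21 have genotype KB1P and 23 have genotype KB2P. Among the KB1P tumours 11 are titled KB1P and 10 are titled KB1PM, and the labels give both the same genotype and do not explain the M. In the models known by these names, a Cre recombinase under the keratin K14 promoter deletes floxed Trp53 and floxed Brca1 or Brca2 in epithelial cells, so the stroma and immune cells of each tumour keep the genes. The labels list genotype, adenocarcinoma histology and 100% epithelial tumour for every library, and give neither strain nor age. The other 29 libraries belong to other models and histologies of the series, and they enter only 1 alternative fit. Polyadenylated RNA was sequenced, and read counts per gene were deposited.

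Each library description opens with a number read here as a sequencing run, and every run holds 1 genotype. KB1P titles came from runs 1857 (6 tumours), 2119 (3) and 3528 (2), KB1PM titles from runs 1725 (3) and 1756 (7), and KB2P tumours from runs 2459 (9), 2749 (12) and 2802 (2). In any comparison of KB1P with KB2P the run and the genotype cannot be told apart. A gene is called held here when it passed the test in the same direction in 5 contrasts, namely the whole comparison, KB1P titles alone, KB1PM titles alone, and the KB1P genotype against KB2P run 2459 alone and against run 2749 alone. Total counts per library ran from 9090867 to 31615237 for KB1P titles, from 10773581 to 21268733 for KB1PM titles and from 7325180 to 21818683 for KB2P tumours. Levels are CPM (each gene's counts per total library count, put on a common scale with trimmed means, TMM), and they compare 1 gene between tumours, not genes with each other. Differences are KB1P minus KB2P on the log2 scale with their standard error (SE). Adjusted p-values come from edgeR's quasi-likelihood test with Benjamini-Hochberg adjustment over 15909 genes, and genes with an adjusted p under 0.05 are called. The labels do not state that each tumour came from a separate animal, so p-values measure the spread between these samples.

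BRCA1 and BRCA2 act in homologous recombination, which repairs DNA double-strand breaks from an intact copy of the sequence. BRCA1 promotes the trimming of the broken ends and, through PALB2, brings in BRCA2, which loads the recombinase on the single strand. Cells without either protein leave such breaks to end-joining pathways, and human breast cancers with a BRCA1 mutation are mostly triple-negative while those with a BRCA2 mutation more often express the oestrogen receptor.

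The epithelial label was compared with 18 epithelial genes (keratins, cadherin and other adhesion genes). Their summed level had a median of 3428.7 CPM in KB1P tumours and 2538.7 CPM in KB2P tumours. In 3 tumours it was far lower, with 318.7 CPM in KB1PM tumour 8, 734.5 CPM in KB1P tumour 1 and 65.76 CPM in KB2P tumour 30, against 1466 CPM in the next lowest. These libraries go against their label of 100% epithelial tumour. They stay in the comparison. Without them, an alternative chosen after seeing the data, 671 genes were called higher and 952 lower in KB1P, against 656 and 754 with them. In bulk tissue, fewer cells of a type and less RNA per cell cannot be told apart. In a principal component plot of the 2000 most variable genes, the first component took 15.8% of the variance and the second 9.72%. The 10 tumours at the low end of the first component were 4 of KB1P and 6 of KB2P genotype, and included those 3.

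**Figure D1:**
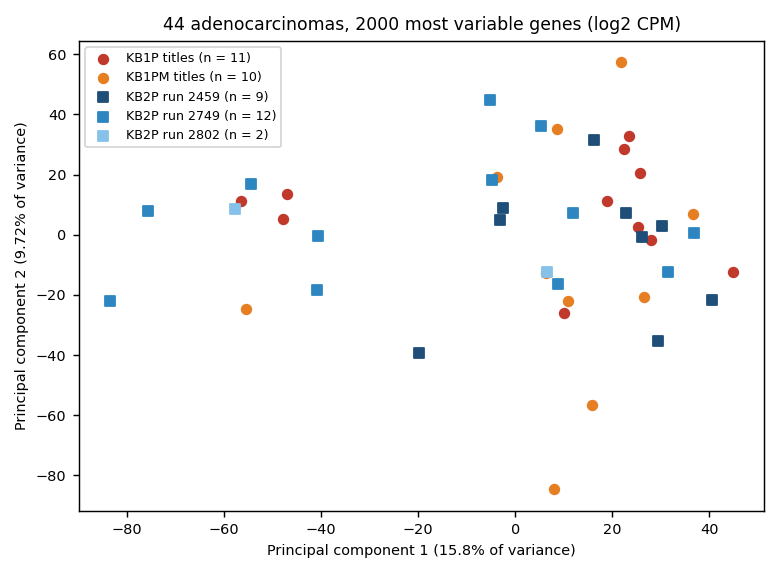
Each point is a tumour, placed by its scores on the first (horizontal) and second (vertical) principal component of log2 CPM over 2000 genes, with KB1P titles, KB1PM titles and KB2P tumours marked apart. The genotypes overlap, and 10 tumours (4 KB1P genotype, 6 KB2P) lie at the low end of the first component.

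The targeted genes were read first. Brca1 had 17.7 CPM in the lowest, 29.9 in the median and 46.5 in the highest KB1P tumour, against 27.8, 56.4 and 151.7 CPM in KB2P tumours. The groups overlapped, with 18 of 23 KB2P tumours above every KB1P tumour. The difference was -1.06 (SE 0.15, edgeR adjusted p = 2.732e-06), it was held, and both KB1P titles (-0.85, adjusted p = 0.004114) and KB1PM titles (-1.27, adjusted p = 2.632e-05) were below KB2P. Brca2, the gene deleted in the KB2P model, did not pass the test. Its lowest, median and highest levels were 24.4, 51.4 and 150.7 CPM in KB1P tumours and 20.3, 47.0 and 115.3 CPM in KB2P tumours, a difference of 0.11 (SE 0.17, edgeR adjusted p = 0.7487). Gene totals count all exons, so a deletion of some exons need not lower them, and the Brca2 total gives no check of the KB2P label. Trp53, deleted in both models, had a median of 26.1 CPM in KB1P and 31.8 CPM in KB2P tumours (difference -0.29, SE 0.13, edgeR adjusted p = 0.1698). Palb2, which encodes the bridge between BRCA1 and BRCA2, had 16.4 and 15.1 CPM at the median of KB1P and KB2P tumours (difference 0.09, SE 0.14, edgeR adjusted p = 0.7547).

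Ribosomal protein genes, annotated pseudogenes and symbols turned into dates were left out (567 of those tested), which left 15342 genes. Of these, 656 were higher in KB1P than in KB2P tumours (4.28% of genes counted) and 754 were lower (4.91%), together 1410 (9.19%). The median difference over all genes was -0.03. With the titles apart, 355 genes (2.31%) were called for KB1P titles and 1266 (8.25%) for KB1PM titles against KB2P. With the KB2P runs apart, 1995 genes (13.0%) were called against run 2459 and 573 (3.73%) against run 2749. Held in all 5 contrasts were 89 genes higher (0.58%) and 95 lower (0.619%) in KB1P, 184 in all (1.2%), and 122 of these differed by at least 1 on the log2 scale. Within a genotype, 380 genes (2.48%) differed between KB2P runs 2749 and 2459, and 8 (0.0521%) between KB1PM and KB1P titles. Of the 184 held genes 5 also differed between the KB2P runs. Among the called but not held genes named here, all but Rad51ap1 and Abcb1b lost their call when some single run was left out. Among the held genes named here, other than Adamts10, H2-Ke6, Hspa1l, Vars, Gm8909, Klhl11, Zzef1 and Gm12320, whose calls without a run were not looked up, Cxcl5, Ankrd22, Slc30a10, Gpat2, Hpca, Ina, Col6a4, Mxra7 and Cdk12 lost it without run 1756, Insr without run 1756 or 2749, and Xcr1 without run 1857 or 1756.

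In 8 genes (0.0521% of genes counted) the 21 KB1P and 23 KB2P tumours did not overlap, and all 8 were held. Apart from Ndufs5 and the transcripts BC018473 and AA465934, those named here were chosen after their values were seen. Among the 3 higher in every KB1P tumour (0.0196%) were the predicted protein-coding genes Gm5148 and Gm4353. Gm5148 had 1.27, 3.15 and 5.82 CPM in KB1P tumours and 0, 0.52 and 0.848 CPM in KB2P tumours. Gm4353 had 0.547, 1.2 and 2.55 CPM in KB1P tumours and 0, 0.0839 and 0.232 CPM in KB2P tumours, and 83.05% of its 50-base stretches also occur in another gene, so reads may be split between copies.

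Lower in every KB1P tumour (5 genes, 0.0326%) were BC018473, Ndufs5, AA465934, Gm12666 and A930005H10Rik. BC018473 is annotated as an antisense transcript on chromosome 11. It had 0, 0.205 and 5.63 CPM in the lowest, median and highest KB1P tumour, against 6.74, 39.0 and 388 CPM in KB2P tumours, a difference of -7.05 (SE 0.67, edgeR adjusted p = 9.954e-11). The transcript was all but missing from KB1P tumours, since only the highest of them came near the lowest KB2P tumour. Ndufs5 encodes an accessory subunit of mitochondrial complex I. It had 0.257, 0.674 and 1.19 CPM in KB1P tumours and 3.10, 6.25 and 13.996 CPM in KB2P tumours, a difference of -3.26 (SE 0.21, edgeR adjusted p = 8.958e-17). Of its 50-base stretches 21.71% occur elsewhere, and its level was low in both groups. AA465934, a processed transcript, had 2.19, 3.48 and 11.5 CPM in KB1P tumours and 13.2, 22.6 and 43.4 CPM in KB2P tumours, a difference of -2.64 (SE 0.18, edgeR adjusted p = 6.35e-16). Gm12666, a predicted gene, was at 0 counts in 15 of 21 KB1P tumours and at 0.839, 1.72 and 2.72 CPM in KB2P tumours, and 52.45% of its stretches occur elsewhere. A930005H10Rik, a processed transcript, had 2.09, 4.38 and 7.45 CPM in KB1P tumours and 7.61, 10.7 and 17.7 CPM in KB2P tumours.

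**Figure D2:**
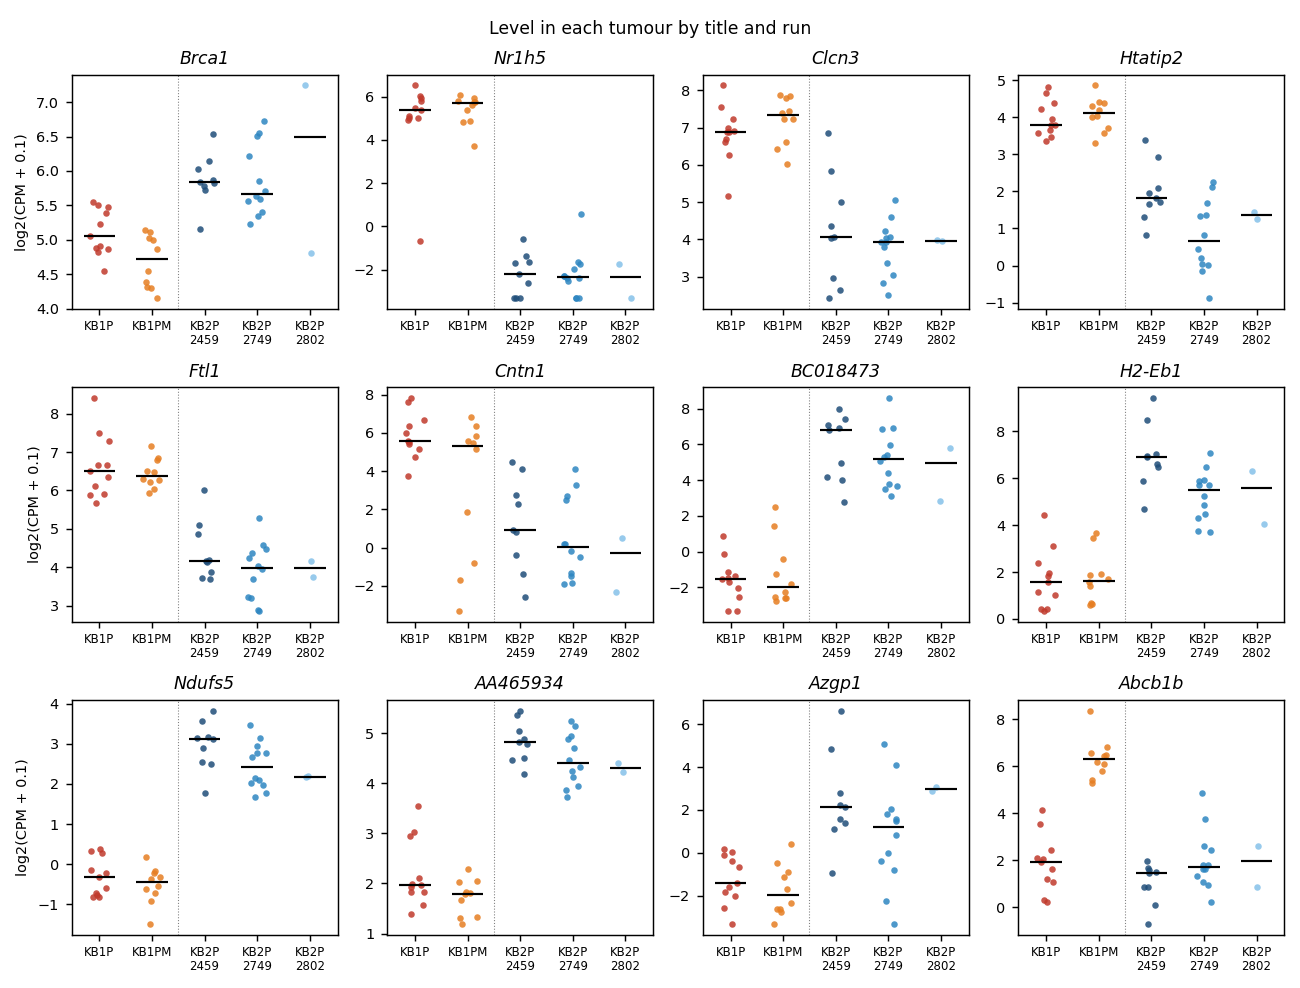
Levels of 12 genes, as log2 of CPM plus 0.1 (vertical), with KB1P and KB1PM titles left of KB2P runs 2459, 2749 and 2802 in each panel. Each point is 1 tumour and each bar the median of its column. Nr1h5 reaches 92.3 CPM in KB1P tumours and 1.41 CPM in KB2P tumours, while H2-Eb1 has a median of 2.88 CPM in KB1P and 58.5 CPM in KB2P tumours.

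Among held genes higher in KB1P tumours the largest difference was that of Nr1h5, which encodes FXR-beta, a nuclear receptor that binds lanosterol in mice and is a pseudogene in humans. It had 0.529, 43.7 and 92.3 CPM in the lowest, median and highest KB1P tumour, against 0, 0.101 and 1.41 CPM in KB2P tumours. The transcript was near 0 in all 23 KB2P tumours, and 20 of 21 KB1P tumours stood above all of them. The difference was 7.93 (SE 0.48, edgeR adjusted p = 2.12e-17), and its size was alike for KB1P titles (7.92) and KB1PM titles (7.95). The next gene on the same strand of chromosome 3, Sycp1, starts 28033 bases away and encodes a protein of the synaptonemal complex, which pairs chromosomes in meiosis. Sycp1 was also higher, with 0.881, 17.2 and 118 CPM in KB1P tumours and 0.224, 6.5 and 16.0 CPM in KB2P tumours (difference 2.03, SE 0.37, edgeR adjusted p = 0.0002495). Nr1h5 made up 30.76% to 92.98% of the summed CPM of the pair in KB1P tumours, median 69.85%, and 0% to 25% in KB2P tumours, median 1.333%, so the shares did not overlap.

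The other named genes that were higher cover ion transport, proteolysis, iron storage and immune signals. Clcn3, a chloride-proton exchanger of endosomes, had 35.9, 128 and 282 CPM in KB1P tumours and 5.27, 15.7 and 116 CPM in KB2P tumours (difference 2.74, SE 0.30, edgeR adjusted p = 2.985e-09). A single KB2P tumour of run 2459 reached 116 CPM, and 21 of 23 KB2P tumours were below every KB1P tumour. Htatip2, an inhibitor of nuclear import with tumour-suppressor activity, had 9.76, 16.1 and 29.1 CPM in KB1P tumours and 0.443, 2.48 and 10.3 CPM in KB2P tumours (difference 2.51, SE 0.26, edgeR adjusted p = 6.491e-10), and it also differed between the KB2P runs (edgeR adjusted p = 0.04856). Ftl1, the ferritin light chain, had 51.3, 88.4 and 339 CPM in KB1P tumours and 7.17, 17.4 and 64.8 CPM in KB2P tumours (difference 2.38, SE 0.23, edgeR adjusted p = 1.097e-10), with 48.21% of its stretches also found in other genes. Lnpep, an aminopeptidase that trims peptides and moves with the glucose transporter GLUT4, had 28.6, 80.9 and 346 CPM in KB1P tumours and 9.37, 28.9 and 52.6 CPM in KB2P tumours (difference 1.71). Cryab, the small heat-shock protein alpha-B crystallin, which human basal-like breast cancers often express, had 9.02, 43.6 and 103 CPM in KB1P tumours and 2.25, 13.9 and 28.3 CPM in KB2P tumours (difference 1.67). The groups overlapped in part, with 19 KB1P tumours above every KB2P tumour for Htatip2, 17 for Ftl1, 14 for Lnpep and 13 for Cryab.

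Cntn1, a cell-adhesion protein of neurons, was more uneven. It had 0, 45.9 and 227 CPM in KB1P tumours and 0.0642, 1.05 and 22.1 CPM in KB2P tumours (difference 3.69, SE 0.66, edgeR adjusted p = 0.0001703). In 16 KB1P tumours it was above every KB2P tumour, while in 1 it was at 0. Slfn9, of the Schlafen family, differed by 1.71, Trim17, a ubiquitin ligase of neurons, by 2.21, and the transcript Platr25 by 2.20. Cxcl5, which attracts neutrophils, had 0.147, 1.98 and 47.4 CPM in KB1P tumours and 0.0574, 0.275 and 6.45 CPM in KB2P tumours (difference 3.17, SE 0.61). Ankrd22, an ankyrin-repeat protein, had 0.505, 2.21 and 20.3 CPM in KB1P tumours and 0, 0.375 and 2.55 CPM in KB2P tumours (difference 2.28, SE 0.47). Most tumours of both genotypes had little of either transcript.

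Held genes lower in KB1P tumours often had low or scattered levels, high in part of the KB2P tumours. Zfp990, a zinc-finger gene, had 0, 0.0683 and 0.564 CPM in KB1P tumours and 0, 0.936 and 82.5 CPM in KB2P tumours (difference -6.01, SE 0.85, edgeR adjusted p = 2.094e-06), with 29.08% of its stretches shared with other genes. Azgp1, zinc-alpha-2-glycoprotein, a secreted protein of glandular epithelium, had 0, 0.233 and 1.25 CPM in KB1P tumours and 0, 2.93 and 98.8 CPM in KB2P tumours (difference -4.76, SE 0.70, edgeR adjusted p = 5.717e-06). For both genes 17 of 23 KB2P tumours were above every KB1P tumour. Igsf23, an immunoglobulin-domain gene, had 0, 0.22 and 4.82 CPM in KB1P tumours and 0.591, 5.41 and 18.6 CPM in KB2P tumours (difference -3.45, SE 0.56). Lipo3, of a lipase family, had 0, 0.192 and 2.12 CPM in KB1P tumours and 0.43, 2.45 and 20.9 CPM in KB2P tumours (difference -3.28, SE 0.50). In both, 12 KB2P tumours were above every KB1P tumour.

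Other genes lower in KB1P rested on fewer KB2P tumours. Pcdh15, a protocadherin of hair cells, reached 0.962 CPM in KB1P tumours and 50.7 CPM in KB2P tumours, with 7 KB2P tumours above all KB1P tumours (difference -4.43). Slc30a10, a manganese exporter, reached 3.03 CPM in KB1P and 67.7 CPM in KB2P tumours, with 5 above (difference -3.89). Gpat2, a glycerol-phosphate acyltransferase of the testis, reached 4.04 CPM in KB1P and 73.9 CPM in KB2P tumours, with 6 above (difference -3.74). Most KB2P tumours lay within the KB1P range for these genes, so the differences rest on a minority of high KB2P tumours. The calcium sensor Hpca (difference -3.54), the neuronal intermediate filament Ina (-3.05) and the collagen chain Col6a4 (-3.05) had 10, 11 and 9 KB2P tumours above all KB1P tumours. By limma on the deposited log2 values, Hpca (-1.46, adjusted p = 0.0676), Ina (-1.97, adjusted p = 0.0696) and Pcdh15 (-1.62, adjusted p = 0.0891) did not pass.

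**Figure D3:**
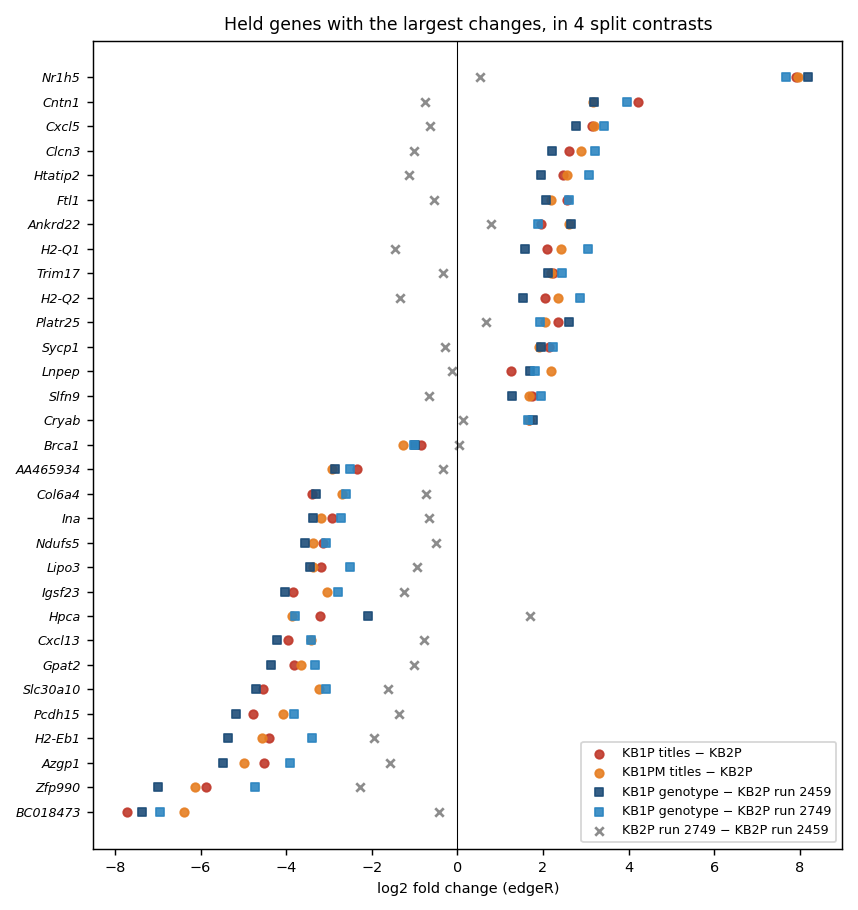
Log2 differences of 31 named genes (horizontal) in 4 split contrasts, which are KB1P titles and KB1PM titles against KB2P and the KB1P genotype against KB2P runs 2459 and 2749. Grey crosses give KB2P run 2749 minus run 2459. The genes were chosen as held, so their 4 split contrasts lie on the same side of 0 by definition. For Nr1h5 they lie between 7.68 and 8.20.

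The class II genes of the major histocompatibility complex, which present peptides to helper T cells, showed a split within a gene family. H2-Eb1, which encodes the beta chain of the I-E molecule, had 1.16, 2.88 and 21.4 CPM in the lowest, median and highest KB1P tumour, against 12.9, 58.5 and 680 CPM in KB2P tumours. Of 21 KB1P tumours 20 were below every KB2P tumour, and the difference was -4.49 (SE 0.49, edgeR adjusted p = 2.686e-09). H2-Eb1 also differed between the KB2P runs (2749 minus 2459, -1.95, edgeR adjusted p = 0.0359), and it was held against each of them (-5.36 against run 2459 and -3.40 against run 2749). Its neighbours did not pass against all KB2P tumours. H2-Aa, the alpha chain of I-A, had 31.9, 129 and 978 CPM in KB1P tumours and 37.0, 180 and 1664.5 CPM in KB2P tumours (difference -0.38, SE 0.41, edgeR adjusted p = 0.6241). H2-Ab1, the beta chain of I-A, had medians of 88.9 CPM in KB1P and 124 CPM in KB2P tumours (difference -0.55, SE 0.44, edgeR adjusted p = 0.4789). Cd74, the invariant chain that guides class II molecules, had medians of 250 CPM in KB1P and 312 CPM in KB2P tumours (difference -0.42, SE 0.42, edgeR adjusted p = 0.576). The sign of these 3 depended on the KB2P run. Against run 2459 the difference was -1.23 for H2-Aa, -1.47 for H2-Ab1 and -1.29 for Cd74, of which H2-Ab1 passed (edgeR adjusted p = 0.0371). Against run 2749 it was 0.69 for H2-Aa, 0.64 for H2-Ab1 and 0.65 for Cd74, and none passed (edgeR adjusted p = 0.4423, 0.5112 and 0.4751). All 3 were lower in run 2749 than in run 2459 (edgeR adjusted p = 0.04279 for H2-Aa, 0.03483 for H2-Ab1 and 0.03904 for Cd74).

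As a share of the summed CPM of H2-Eb1 and H2-Aa, H2-Eb1 made up 1.538%, 2.133% and 3.521% in the lowest, median and highest KB1P tumour, against 21.6%, 27.1% and 29.85% in KB2P tumours. All 21 KB1P shares were below all 23 KB2P shares. Set against H2-Ab1 the shares were 2.128% to 4.95% in KB1P tumours and 22.09% to 37.67% in KB2P tumours. The shares are not per length and serve only to compare tumours. Within each genotype the share stayed in a narrow range while the level of both genes varied widely. No 50-base stretch of H2-Eb1 or H2-Ab1 occurs elsewhere in the annotated transcripts, and 0.51% of those of H2-Aa do. The H2-Eb1 start lies 18.0 kb from that of H2-Aa on chromosome 17.

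The promoters of H2-Eb1 and H2-Aa are shown because neighbouring genes of 1 family differed unequally between the genotypes. Those of Nr1h5 and Sycp1 are shown as the neighbours that were both higher in KB1P. Each holds 250 bases before and 50 bases after the annotated start, from RefSeq on build GRCm38.p6, 5′ to 3′ on the strand of the gene. Capitals mark 2 motifs of class II promoters, an X box core (CTNGCAAC) and a Y box (CTGATTGG), which were searched on both strands.
H2-Eb1, chr17:34305617-34305916, plus strand: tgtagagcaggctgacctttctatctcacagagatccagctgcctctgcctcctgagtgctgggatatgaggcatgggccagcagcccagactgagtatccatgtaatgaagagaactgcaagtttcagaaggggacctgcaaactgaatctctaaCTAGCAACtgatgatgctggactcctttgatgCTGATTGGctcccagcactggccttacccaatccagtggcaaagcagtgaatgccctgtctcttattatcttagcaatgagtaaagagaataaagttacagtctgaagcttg
H2-Aa, chr17:34287774-34288073, minus strand: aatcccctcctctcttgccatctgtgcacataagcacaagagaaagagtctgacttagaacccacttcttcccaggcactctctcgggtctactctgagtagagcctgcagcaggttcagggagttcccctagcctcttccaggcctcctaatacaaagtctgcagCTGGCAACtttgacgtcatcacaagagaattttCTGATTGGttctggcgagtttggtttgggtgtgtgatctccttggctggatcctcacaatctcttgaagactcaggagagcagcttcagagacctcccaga
Nr1h5, chr3:102964084-102964383, minus strand: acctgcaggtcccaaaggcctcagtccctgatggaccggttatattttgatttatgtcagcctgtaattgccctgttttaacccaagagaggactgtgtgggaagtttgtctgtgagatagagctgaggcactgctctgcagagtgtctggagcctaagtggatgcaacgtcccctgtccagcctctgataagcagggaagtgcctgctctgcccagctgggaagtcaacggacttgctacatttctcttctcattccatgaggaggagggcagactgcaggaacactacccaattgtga
Sycp1, chr3:102936051-102936350, minus strand: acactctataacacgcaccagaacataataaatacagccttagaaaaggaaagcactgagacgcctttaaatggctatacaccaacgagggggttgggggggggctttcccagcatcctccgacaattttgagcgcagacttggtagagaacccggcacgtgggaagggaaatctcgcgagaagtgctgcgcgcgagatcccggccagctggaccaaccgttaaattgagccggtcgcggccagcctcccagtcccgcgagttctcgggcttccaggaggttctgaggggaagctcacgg
The Y box starts 62 bases before the H2-Eb1 start and 51 before that of H2-Aa, and the X box 94 and 84 bases before. The Y box letters occur in 4.1% of 32851 promoters of this length, the X box letters in 3.42% and both in 0.18%. Of 7 members of the class II list with a promoter in the table, 3 hold the Y box, 3 the X box and 2 both. These are reference letters and not those of the tumours, and neither motif occurs in the windows of Nr1h5 and Sycp1.

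Of 10 class II genes measured, 2 were called, both lower in KB1P, H2-Eb1 (held) and H2-DMb1 (not held), where 4.91% of all genes were lower. Against all KB2P tumours together the 10 differences were negative, with a median of -0.60 against -0.03 over all genes, but against run 2749 those of H2-Aa, H2-Ab1 and Cd74 were positive, as given above. H2-DMb1, which helps to load peptides, had medians of 5.34 CPM in KB1P and 14.5 CPM in KB2P tumours (difference -1.15, SE 0.34, edgeR adjusted p = 0.02333), and the length and GC offsets described below ended its call (-0.92, edgeR adjusted p = 0.0846). Of 16 genes of class I presentation, 2 were called, both lower, H2-T22 (difference -1.502) and H2-T23 (-0.93), neither held, with a list median of -0.01 and 8 of 16 negative. Neither was called by limma (adjusted p = 0.0787 for H2-T22 and 0.228 for H2-T23), and the offsets ended the call of H2-T23 (-0.79, edgeR adjusted p = 0.104). Outside that list, the class I genes H2-Q1 and H2-Q2 were higher and held. H2-Q1 had 1.43, 13.1 and 45.6 CPM in KB1P tumours and 0.51, 1.69 and 13.0 CPM in KB2P tumours (difference 2.26, SE 0.37). H2-Q2 had 5.89, 26.1 and 84.4 CPM in KB1P tumours and 1.73, 4.76 and 25.4 CPM in KB2P tumours (difference 2.20, SE 0.35). Class I genes resemble each other, and 14.96% of the stretches of H2-Q1, 16.09% of H2-Q2 and 34.67% of H2-T22 occur in other genes, so their counts are uncertain. For each of H2-Q1 and H2-Q2, 11 KB1P tumours were above every KB2P tumour. The sum of both, which does not depend on how reads were split between them, was 9.596, 41.54 and 130.1 CPM in KB1P tumours and 2.242, 6.761 and 38.36 CPM in KB2P tumours.

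Held genes also lay near each other elsewhere. Of the 183 held genes with a position, 74 (40.4%) had another held gene within 1 Mb, start to start, against 3355 of 15080 counted genes that were not held (22.2%), a difference that was not tested. The 74 fell in 28 clusters, of which 14 held genes of 1 direction only. The largest cluster had 8 genes over 2.64 Mb of chromosome 17, with Adamts10 (difference -1.21), H2-Ke6 (-1.27), H2-Eb1 (-4.49), Hspa1l (-1.28) and Vars (-1.02) lower and H2-Q1 (2.26), H2-Q2 (2.20) and Gm8909 (2.095) higher in KB1P. Adamts10, H2-Ke6, Hspa1l, Vars and Gm8909 are named here after their values were seen. The next cluster had 7 genes over 2.32 Mb of chromosome 7, around Ftl1, with 2 higher and 5 lower. Held genes made up 2.48% of genes counted on chromosome 9, 2.14% on chromosome 7 and 1.91% on chromosome 3, against 1.2% overall. The start of BC018473 lies 75.9 kb from that of Mxra7, a matrix-remodelling gene that was also lower and held (medians of 14.1 CPM in KB1P and 30.3 CPM in KB2P tumours, difference -1.28), and Mxra7 was named after its values were seen.

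Acaa1a and Acaa1b, both encoding peroxisomal thiolases that shorten fatty acids, went opposite ways. Acaa1a had 21.7, 43.6 and 73.7 CPM in KB1P tumours and 44.008, 81.4 and 226 CPM in KB2P tumours (difference -1.15, SE 0.18). Acaa1b had 0.859, 1.85 and 3.59 CPM in KB1P tumours and 0, 0.496 and 1.98 CPM in KB2P tumours (difference 1.56, SE 0.31). Both were held and both were named after their values were seen. Acaa1b made up 2.5% to 5.682% of their sum in KB1P tumours and 0% to 3.084% in KB2P tumours. Of the stretches of Acaa1b 30.48%, and of those of Acaa1a 12.92%, occur in other genes. A similar pair is Hba-a2 and Hba-a1, alpha-globin genes of red cells. Hba-a2 was at 0 counts in 17 of 21 KB1P tumours and reached 0.137 CPM, against 0, 1.39 and 24.6 CPM in KB2P tumours (held, difference -7.05, SE 0.71, edgeR adjusted p = 4.879e-10). Hba-a1 had medians of 11.7 CPM in KB1P and 5.86 CPM in KB2P tumours (difference 0.82, edgeR adjusted p = 0.3291). The sum of both overlapped widely, 3.308 to 192.1 CPM in KB1P and 0.7164 to 125.0 CPM in KB2P tumours, and 89.29% of the stretches of Hba-a2 occur in Hba-a1, so reads of the pair can hardly be told apart. Of 183 held genes looked up, 28 shared at least 10% of their 50-base stretches with genes elsewhere, 11 of the higher and 17 of the lower ones. The share over all genes was not looked up, so this count cannot show whether held genes share more than others. Overlapping genes add to the uncertainty of counts. Exons of genes on the opposite strand cover 39.9% of the exon bases of Ankrd22, 26.5% of Ftl1, 17.0% of Cryab and 12.3% of A930005H10Rik, and 19% of Trim17 lies under a gene on its own strand. H2-Eb1, Nr1h5, BC018473, Ndufs5 and AA465934 share no exon base with another annotated gene.

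**Figure D4:**
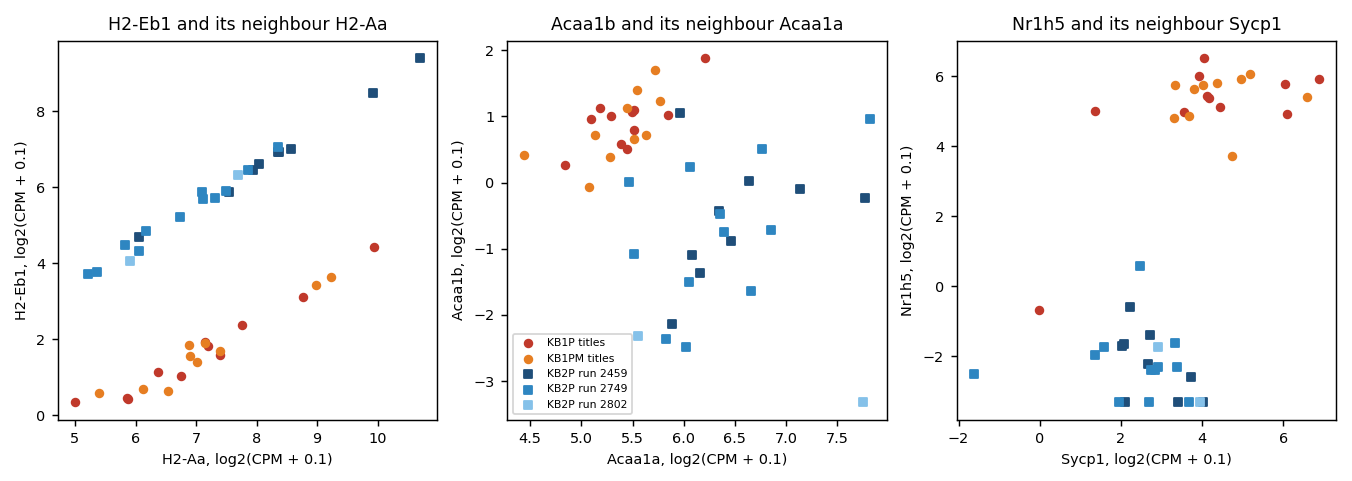
Levels of 3 neighbour pairs in each tumour, as log2 of CPM plus 0.1, with H2-Eb1, Acaa1b and Nr1h5 on the vertical axes and H2-Aa, Acaa1a and Sycp1 on the horizontal axes. H2-Eb1 follows H2-Aa on separate lines for KB1P and KB2P tumours, at 1.538% to 3.521% of their sum in KB1P and 21.6% to 29.85% in KB2P tumours.

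Of 28 homologous recombination genes measured, 4 were called by edgeR, all lower in KB1P and not held, with a list median of 0.03 and 15 positive and 13 negative differences. Over all genes 4.91% were lower and 9.19% called in either direction. Rad51ap1, an accessory factor of strand exchange, had 16.8, 28.7 and 45.1 CPM in KB1P tumours and 25.5, 43.0 and 72.5 CPM in KB2P tumours (difference -0.67, SE 0.12, edgeR adjusted p = 9.539e-05), with 9 KB2P tumours above every KB1P tumour. Xrcc3, which acts in strand exchange, had medians of 20.5 CPM in KB1P and 33.0 CPM in KB2P tumours (difference -0.75, SE 0.17), and the meiotic recombinase Dmc1 medians of 0.233 CPM in KB1P and 1.505 CPM in KB2P tumours (difference -2.36, SE 0.69). Sem1, which encodes a small partner of BRCA2, had medians of 102 CPM in KB1P and 141 CPM in KB2P tumours (difference -0.46, SE 0.12). Of 16 Fanconi anaemia genes, Fanca alone was called (difference 0.51). Outside these lists, Traip (difference -1.02, SE 0.16), a ubiquitin ligase of the replication fork, and Mnd1 (-1.02, SE 0.17), a meiotic partner of DMC1, were lower and held. Traip had medians of 22.3 CPM in KB1P and 48.2 CPM in KB2P tumours, and Mnd1 of 5.02 CPM in KB1P and 11.2 CPM in KB2P tumours. Both were named after their values were seen.

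Of 20 end-joining and resection-control genes, 3 were higher and 1 lower in KB1P, where 4.28% of all genes were higher and 4.91% lower. The list median was -0.004, with 10 positive and 10 negative differences. Dclre1c encodes Artemis, the nuclease that opens hairpin ends. It had 17.0, 25.6 and 50.1 CPM in KB1P tumours and 10.3, 17.0 and 27.1 CPM in KB2P tumours (held, difference 0.67, SE 0.14, edgeR adjusted p = 0.0008137), with 10 KB1P tumours above every KB2P tumour. Lig4, the ligase of end joining, had medians of 20.4 CPM in KB1P and 14.4 CPM in KB2P tumours (difference 0.80, SE 0.20), and Rif1, which acts with 53BP1 against resection, of 176 CPM in KB1P and 124 CPM in KB2P tumours (difference 0.49, SE 0.13), neither held. Dynll1, a dynein light chain that limits resection, was lower (difference -0.41, SE 0.12). Trp53bp1, which encodes 53BP1, did not pass (medians of 144 CPM in KB1P and 156 CPM in KB2P tumours, difference -0.13, edgeR adjusted p = 0.5418). Of 12 checkpoint and replication-stress genes, 2 were called, both higher and held, with a list median of 0.03. Atm, the kinase that signals double-strand breaks, had 28.8, 82.9 and 174 CPM in KB1P tumours and 16.8, 44.7 and 87.7 CPM in KB2P tumours (difference 0.96, SE 0.17, edgeR adjusted p = 0.0001703), and the other was Slfn9, at medians of 69.7 CPM in KB1P and 20.0 CPM in KB2P tumours. Cdk12, a kinase that sustains transcription of long repair genes, had medians of 133 CPM in KB1P and 87.0 CPM in KB2P tumours (difference 0.55, SE 0.11). Cdk12 was held and was named after its values were seen.

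Atm, Rif1 and Cdk12 have long transcripts, and length moved with the comparison. With genes put in 5 equal bins by the length of their longest transcript, the median difference was -0.16, -0.10, -0.04, 0.03 and 0.16 from the shortest to the longest bin. Between KB2P runs 2749 and 2459, of 1 genotype, it was -0.25, -0.12, -0.01, 0.08 and 0.23 over the same bins. Held genes higher in KB1P had a median length of 4951 bases, held lower ones 2280 bases and all genes 3250 bases. In a fit with offsets for length and GC content, chosen after seeing the data, 334 genes were higher and 576 lower in KB1P, against 656 and 754 without the offsets. Atm and Cdk12 stayed called there, and the held Dclre1c did not (difference 0.39, edgeR adjusted p = 0.0819). Rif1 (0.18, edgeR adjusted p = 0.35) was no longer called either, while Trp53bp1 was called lower (-0.45, edgeR adjusted p = 0.00998). The same offsets ended the call of Insr (0.66, edgeR adjusted p = 0.063).

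Of 19 proliferation and mitosis genes 3 were called, all lower in KB1P and not held, and 15 were negative, with a list median of -0.27 against -0.03 over all genes, of which 4.91% were lower. Those called were the mitotic kinase Aurka (difference -0.49), the anaphase activator Cdc20 (-0.43) and the ubiquitin-conjugating enzyme Ube2c (-0.56). Mki67, the usual proliferation marker, had medians of 645 CPM in KB1P and 704 CPM in KB2P tumours and did not pass (difference 0.11, edgeR adjusted p = 0.717). Of the cyclin and kinase genes, Ccne1 (difference -0.65, SE 0.18) and Cdk4 (-0.36) were lower, and Cdk6 was higher with 9.02, 108 and 355 CPM in KB1P tumours and 4.69, 47.4 and 110 CPM in KB2P tumours (difference 1.35, SE 0.34, edgeR adjusted p = 0.008028). Histone variant H2afx, which marks broken DNA when phosphorylated, had medians of 92.9 CPM in KB1P and 181 CPM in KB2P tumours (difference -0.92, SE 0.21, edgeR adjusted p = 0.003376). Ccne1, Cdk4, Cdk6 and H2afx were not held. With the offsets for length and GC content the calls of Aurka (-0.39, edgeR adjusted p = 0.0965), Cdc20 (-0.25, edgeR adjusted p = 0.258) and Ube2c (-0.43, edgeR adjusted p = 0.0949) ended, and so did those of Ccne1, Cdk4 and Cdk6 (edgeR adjusted p = 0.0678, 0.241 and 0.115). Of 14 p53 target genes Ccng1 alone was called (difference 0.30), where 4.28% of all genes were higher. It was not called by limma (0.30, adjusted p = 0.0539) or with the offsets (0.23, edgeR adjusted p = 0.151).

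Among growth factor receptors, Insr was held. Insr, the insulin receptor, had 91.9, 168 and 1340 CPM in KB1P tumours and 62.9, 108 and 245 CPM in KB2P tumours (difference 1.01, SE 0.23, edgeR adjusted p = 0.002403), though 1340 CPM stood in a single tumour and 7 KB1P tumours were above all KB2P tumours. Igf1r, the related IGF receptor, was higher and not held (difference 0.97, SE 0.30). Ret, a receptor tyrosine kinase, reached 327 CPM in a KB2P tumour and 15.7 CPM in KB1P tumours, and was lower (difference -3.55, SE 0.79) without being held. The kinase gene Braf was higher (difference 0.48) and not held. Kmt2c, a histone methyltransferase counted with the tumour suppressors, was higher (0.62) and not held. The Notch effector Rbpj (difference -0.66) and the Wnt enhancer Rspo3 (-3.06), with 4 KB2P tumours above every KB1P tumour, were lower and not held. Neither DESeq2 (-2.0, adjusted p = 0.177) nor limma (-0.39, adjusted p = 0.849) called Rspo3, and limma did not call Ret (-1.665, adjusted p = 0.112). The length and GC offsets ended the calls of Rspo3 (-3.11, edgeR adjusted p = 0.0582) and Igf1r (0.65, edgeR adjusted p = 0.173). Those of Braf (0.15, edgeR adjusted p = 0.429) and Kmt2c (0.20, edgeR adjusted p = 0.375) ended too.

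None of 18 epithelial, 18 basal and 16 hormone-sensing luminal genes was called by edgeR, nor of 14 mesenchymal and 16 fibroblast and collagen genes. At an unadjusted p under 0.05, 0 epithelial, 3 basal, 2 hormone-sensing luminal, 3 mesenchymal and 2 fibroblast and collagen genes stood apart. DESeq2 called 0, 1, 1, 1 and 0 genes of these lists, and limma called 1, a hormone-sensing luminal gene. Esr1, the oestrogen receptor, had 1.15, 6.98 and 27.7 CPM in KB1P tumours and 0.503, 3.697 and 41.9 CPM in KB2P tumours (difference 0.00, SE 0.44, edgeR adjusted p = 0.9984). The groups overlapped almost wholly. Krt14, the basal keratin whose promoter drives Cre in these models, had medians of 384 CPM in KB1P and 287 CPM in KB2P tumours (difference 0.05, SE 0.55), Krt18, a luminal keratin, of 417 CPM in KB1P and 240 CPM in KB2P tumours (0.31, SE 0.42), and Elf5, a factor of luminal progenitors, of 65.3 CPM in KB1P and 78.6 CPM in KB2P tumours (-0.41, SE 0.37). Krt14, Krt18 and Elf5 did not pass. Elf5 went against most of its list. Of 15 luminal progenitor genes 10 differences were positive and 5 negative, with a list median of 0.349 against -0.03 over all genes. One of them (1 of 15) was called by edgeR, higher in KB1P and not held, where 4.28% of all genes were higher. DESeq2 and limma also called 1 higher. The lowest Elf5 level was 35.6 CPM in KB1P tumours, and 9 KB2P tumours were below it, down to 2.81 CPM.

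Milk protein genes were higher in some KB1P tumours. Of 7 measured, 3 were called, all higher and not held, and all 7 were positive, with a list median of 1.15 against -0.03 over all genes, of which 4.28% were higher. DESeq2 also called 3, and limma 1, without Csn2 (adjusted p = 0.131) and Lalba (adjusted p = 0.0705). Csn2, beta-casein, had 0, 8.79 and 1460 CPM in KB1P tumours and 0, 1.15 and 70.8 CPM in KB2P tumours (difference 3.37, SE 0.96, edgeR adjusted p = 0.01892). Csn1s1, alpha-casein, had 0.0687, 23.8 and 845 CPM in KB1P tumours and 0, 3.10 and 45.1 CPM in KB2P tumours (difference 3.03, SE 0.79, edgeR adjusted p = 0.01018). For each casein 6 KB1P tumours were above all KB2P tumours, and the rest overlapped. Lalba, alpha-lactalbumin, reached 57.3 CPM in KB1P and 5.20 CPM in KB2P tumours (difference 2.17, SE 0.61). With the titles apart, the difference of Lalba was 3.91 for KB1PM titles (edgeR adjusted p = 0.0002374) and 0.43 for KB1P titles (edgeR adjusted p = 0.8257), and the test between the titles did not pass (edgeR adjusted p = 0.0869). The summed level of the milk list ran from 39.667 to 1933.8 CPM, median 340.86, in KB1P tumours and from 16.822 to 894.98 CPM, median 115.12, in KB2P tumours.

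**Figure D5:**
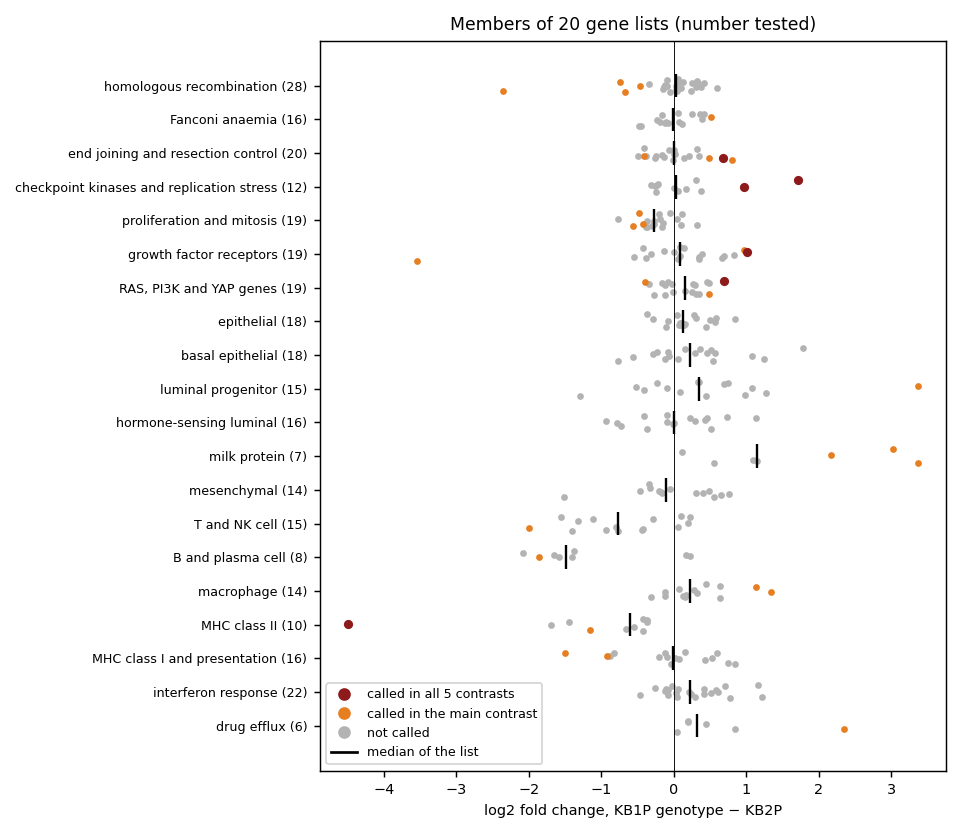
For 20 gene lists, the log2 differences of the measured members (horizontal, 1 point per gene) and the list median, with called and held members marked. The milk protein list has a median of 1.15 and class II genes one of -0.60, against -0.03 over all genes.

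Among immune genes single members were called, where over all genes 4.28% were higher and 4.91% lower. Of 15 T and NK cell genes 1 was called, with a list median of -0.77. That gene, Cd3d, a subunit of the T-cell receptor complex, had medians of 0.292 CPM in KB1P and 0.263 CPM in KB2P tumours with maxima of 2.67 CPM in KB1P and 16.7 CPM in KB2P (difference -1.999, SE 0.66, edgeR adjusted p = 0.04451). The call thus came with like medians and 4 high KB2P tumours, and neither DESeq2 (-1.39, adjusted p = 0.0985) nor limma (-0.61, adjusted p = 0.553) made it. Cd8a (difference -0.94, edgeR adjusted p = 0.3934) and the pan-leukocyte gene Ptprc (0.20, edgeR adjusted p = 0.7559) did not pass. The summed T and NK cell list went the other way at the median, 49.7 CPM in KB1P and 32.0 CPM in KB2P tumours. It ran from 20.2 to 213 CPM in KB1P and from 15.3 to 254 CPM in KB2P tumours. Of 8 B and plasma cell genes, Cd79b, of the B-cell receptor, was the one called, lower in KB1P (difference -1.86, SE 0.58), and the list median was -1.49. DESeq2 called 6 of these genes lower and limma 2. Cd79b itself was not called by limma (-0.79, adjusted p = 0.399), and the length and GC offsets ended its call (-1.62, edgeR adjusted p = 0.0744). Xcr1, the receptor of cross-presenting dendritic cells, had 0, 0.19 and 1.13 CPM in KB1P tumours and 0.177, 0.875 and 2.88 CPM in KB2P tumours (held, difference -1.58, SE 0.36, edgeR adjusted p = 0.0033), alone of 11 dendritic cell genes. Cxcl13, which draws B cells, had 0, 0.144 and 1.93 CPM in KB1P tumours and 0, 1.35 and 21.8 CPM in KB2P tumours (held, difference -3.69, SE 0.74, edgeR adjusted p = 0.000724), and was the one called of 17 genes in a chemokine list that leaves out Cxcl5, which was higher and held.

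Of 14 macrophage genes 2 were called, both higher and neither held, where 4.28% of all genes were higher. Mrc1, the mannose receptor, had medians of 55.3 CPM in KB1P and 25.5 CPM in KB2P tumours (difference 1.14, SE 0.30), and Arg1, arginase, of 45.6 CPM in KB1P and 15.4 CPM in KB2P tumours (difference 1.34, SE 0.43). The summed macrophage list ran from 647.42 to 4080.3 CPM in KB1P and from 525.18 to 3706.2 CPM in KB2P tumours, with none of its markers at 0 in every tumour. The parts of cell number and of RNA per cell in these differences were not tested. Of 22 interferon-response genes none was called by edgeR, 1 had an unadjusted p under 0.05, DESeq2 called 0 and limma 1. Mmp13, a collagenase, was higher (medians of 10.1 CPM in KB1P and 4.79 CPM in KB2P tumours, difference 1.78, SE 0.52) and not held. Of the endothelial genes Flt1 (difference 0.66) was higher and Vwf (-0.77) lower, and the pericyte gene Mcam was lower (-0.91), none held. Mmp13 was not called by limma (1.38, adjusted p = 0.0823), and the length and GC offsets ended the call of Flt1 (0.48, edgeR adjusted p = 0.13).

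Among drug efflux genes the KB1P titles parted. Abcb1b, which encodes a P-glycoprotein that exports drugs, had 38.6, 79.8 and 327 CPM in the lowest, median and highest KB1PM tumour, 1.07, 3.66 and 17.4 CPM in KB1P titles and 0.516, 2.92 and 28.9 CPM in KB2P tumours. Every KB1PM tumour was above every KB1P-titled and KB2P tumour. KB1P and KB1PM titles share no run, so title and run cannot be told apart here. Counts over all exons do not show whether more P-glycoprotein was made. KB1PM differed from KB2P by 4.48 (edgeR adjusted p = 3.135e-10) and from KB1P titles by 4.28 (edgeR adjusted p = 6.098e-05), while KB1P titles differed from KB2P by 0.20 (edgeR adjusted p = 0.8767). Its close relative Abcb1a had medians of 1.85 CPM in KB1P genotype and 1.09 CPM in KB2P tumours and did not pass (difference 0.84, SE 0.32, edgeR adjusted p = 0.08869), and 11.63% of the stretches of Abcb1b occur in other genes. Abcb1b was the only one of 6 drug efflux genes called, where 4.28% of all genes were higher. In the antioxidant list of the factor NRF2, Srxn1, sulfiredoxin, was the single gene called of 14 (difference 0.87, SE 0.29), though not by limma (0.68, adjusted p = 0.139).

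The surroundings of the targeted genes were read for linked differences. Within 5 Mb of Brca1, 12 of 216 genes were higher and 1 lower, with 140 positive and a median of 0.10, and Cdk12 and Klhl11 (difference 1.17) were held higher. Within 5 Mb of Brca2, 2 of 35 genes were higher and 6 lower, and none of the 8 was held. Within 5 Mb of Trp53, 4 of 160 were higher and 3 lower, with Zzef1 (difference 0.55) held higher and Gm12320 (-3.12) held lower. Klhl11, Zzef1 and Gm12320 were named after their values were seen. Over all genes 4.28% were higher and 4.91% lower.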

How the data were processed

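The authors deposited a table of read counts per gene (39438 symbols, 73 libraries) and one of log2 normalized counts. Per the submitters' processing notes the tools were STAR 2.7.3a, featureCounts 2.0.0, cutadapt 2.10 and DESeq, on build mm10, with no order or settings. Libraries were strand-marking and poly(A)-selected, per the labels' protocols. The sources used here do not state whether reads were counted by strand. From the counts of 44 libraries, edgeR 4.0.16 in R 4.3.3 (filterByExpr at 10, TMM, 3 groups: KB1P titles, KB1PM titles, KB2P) gave the quasi-likelihood tests, with the titles averaged. A second fit split KB2P by run. DESeq2 1.42.0 (counts) and limma 3.58.1 (deposited log2 values) were alternatives, and the edgeR steps were tested on simulated data. Held and called genes, 45 gene lists of 670 genes and the comparison itself were chosen with earlier results of these data known. Named are Brca1, Brca2, Trp53 and Palb2, up to 15 genes per direction of largest held difference (mean log2 CPM at least 1, predicted and RIKEN symbols left out), list members called or named for not passing, and genes marked as named after their values were seen. Same-numbered tumours were not paired by the labels. The count table holds 24 symbols turned into dates, 0.1688% of counts. The highest correlation between libraries was 0.9792, and no library was counted as a repeat. No cutoff was set, so this value cannot exclude 2 samples of 1 animal. Positions and biotypes come from GENCODE M21 (GRCm38). Precision rests on depth and covers counting error and the spread between tumours only. DNA copy-number data were not analysed here. Results of some genes are not reported here.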

Additional observations from a re-analysis of the deposited data

Results flagged for a closer look

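Among the 10 KB1PM tumours, single tumours stood apart from the other 9 of their title for 27 of the named genes, and 1 difference between titles passed its test. By chance the rule flags about 1 in 20 groups of normally distributed values. CPM values were used off the log scale and can be skewed, so chance may flag more than that. All single-tumour flags but that of Sem1 were high values. Only KB1PM titles, as a group of 10, were looked at in this way. KB1PM tumour 6 stood high for the transcript BC018473 at 5.63 CPM (next 2.61), Fanca at 66.4 (43.7), Rspo3 at 14.3 (5.77), Lalba at 57.3 (13.2), Cd3d at 2.67 (1.37), Cd79b at 4.29 (2.16) and Abcb1b at 327 CPM (113). KB1PM tumour 4 stood high for the casein Csn2 at 1460 CPM (next 93.4), Mrc1 at 216 (95.4), Slfn9 at 202 (110) and Igsf23 at 4.82 (1.05), and tumour 10 for the casein Csn1s1 at 845 CPM (145). KB1PM tumour 8, which was low in epithelial genes, stood high for Igf1r at 427 CPM (138), Dmc1 at 6.17 (0.385) and Slc30a10 at 3.03 (1.25). KB1PM tumour 3 stood high for Sycp1 at 94.9 CPM (36.1) and Gpat2 at 4.04 (1.24), and low for Sem1 at 34.4 CPM (90.4). KB1PM tumour 2 stood high for Ankrd22 at 20.3 CPM (6.46), Ret at 9.95 (1.85) and Col6a4 at 7.45 (3.75). KB1PM tumour 1 stood high for Azgp1 at 1.25 CPM (0.617) and for the red cell genes Alas2 at 16.1 (9.05) and Hba-a1 at 58.3 (28.4). KB1PM tumour 11 stood high for Cxcl5 at 47.4 CPM (8.87) and Platr25 at 6.46 (4.03), and tumour 9 for Pcdh15 at 0.962 CPM (0.385). For Abcb1b the KB1PM titles differed from the KB1P titles, which share no run with them, by 4.28 on the log2 scale (edgeR adjusted p = 6.098e-05).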

How the results depend on the processing

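All held genes that were tested kept their direction in each edgeR refit, including TMM against DESeq2's scaling (182 of 184 also held) and no filter on low counts (150). They were picked from the same libraries, so a kept direction is a weak check. Fewer were held again with offsets for length and GC content (107), without run 1857 (54), without run 1756 (36) and with the replicate block described below (0). The 656 higher and 754 lower calls became 835 and 1062 with DESeq2, and 577 and 556 with limma on the deposited log2 values, so neither moved a count by over 1.5 times. A minimum count of 50 left 59 held lower genes. In the fit of all 73 libraries 1378 genes were lower and 144 higher and 186 lower ones held. Crossing the titles with the runs as 4 contrasts held 35 higher and 43 lower genes. Offsets for length and GC content, chosen after seeing the data, gave 334 higher and 43 held higher genes.

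Leaving out a run also moved the counts, and the cause was not tested. Without run 1857, 346 genes were higher and 328 lower, with 30 and 29 held. Without run 1756, 246 were higher and 165 lower (59.9% of calls higher, against 46.5% with it), with 33 and 11 held. Without run 2459, 299 were higher and 433 lower. Without run 2749, 169 higher and 168 lower genes were held. The contrast against run 2749 dropped out of that fit. Held there thus asked for fewer than 5 contrasts, and its counts are not like those of the main fit. With sample numbers as a replicate block, 127 genes were higher and 99 lower, and 0 and 0 held. In that fit 2558 genes had an unadjusted p under 0.05, and Rspo3 reversed to 1.12 (adjusted p = 0.842). Deviations of same-numbered tumours from their group means had correlations of -0.172 to 0.446 (17 pairs, median -0.000446, 5 over 0.1). Pairs of unlike number were not compared, so these values cannot decide whether the numbers mark linked samples. The labels do not pair them. At the depth of these libraries a level near 0.1 CPM rests on a few reads at most, so low levels rank tumours poorly.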
